A study of Mus musculus with 12 samples.

Results

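The odorant transduction genes encode the proteins that turn the binding of an odorant into an electrical signal in olfactory sensory neurons (OSNs). The genes described here were 9 of this cascade and *Omp*, the marker of mature OSNs, and they were found on the array as every probe set whose single gene symbol is one of these 10. This gave 13 probe sets of 35556 on the array, of which 21789 carry a single symbol, with 4 probe sets for *Cngb1* and 1 for each other gene. Total RNA of the main olfactory epithelium (MOE) was measured on 12 arrays, 1 per mouse, with 6 ΔJ mice and 6 wild-type littermates at postnatal day 30 (P30) or P33. ΔJ mice, labelled as J-knockout, are defined in the study as homozygous for a deletion of the J element. This element is an enhancer within the cluster of class I odorant receptor (OR) genes. The line came from 1 founder made with CRISPR-Cas9 in hybrid eggs, crossed back to C57BL/6NCrSlc mice and labelled as strain C57BL/6. The methods name heterozygous ΔJ mice of the second backcross generation for the arrays, which may be the parents of the measured mice, and the zygosity of each mouse is not given in the labels. The ΔJ group held 3 males and 3 females with 1 mouse at P33, and the wild-type group held 2 males and 4 females with 2 mice at P33. The question was whether the mRNA of the transduction machinery differed in the epithelium of mice that lack an enhancer of part of the OR genes.

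In an OSN, a bound OR activates a heterotrimeric G protein, whose olfactory alpha subunit stimulates an adenylyl cyclase in the cilia. The cyclic AMP made there opens a cyclic nucleotide-gated cation channel, and the calcium that enters opens a chloride channel that adds to the current. Nearly all mature OSNs use these same proteins whichever OR they express, so the genes are read in class I and class II OSNs together when the whole epithelium is measured.

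Sites of the Ebf (Olf-1) factors are known in promoters of some of these genes, and the study describes homeodomain sites in OR enhancers. The RefSeq promoter table of GRCm38.p6, which gives 250 bases before to 50 bases after each start, held 12 promoters of 8 of the 10 genes. *Omp* and *Gnal* were absent from it. The core CCCNNGGGA, searched on both strands, was present in 3 of the 8 genes, *Gng13*, *Cnga2* and *Ano2*, and in 7.48% of the 27025 genes of the table. The homeodomain core TAATTA, searched on both strands, was present in 0 of the 8 genes and in 6.12% of all genes. The matches of these 3 genes are shown with 20 bases on either side and the core in capitals. All 3 are written on the plus strand, where *Cnga2* shows the reverse complement of the core. The stretches run on chromosome 17 from 25717058 to 25717106 for *Gng13* and on chromosome X from 71991762 to 71991810 for *Cnga2*. That of *Ano2* runs on chromosome 6 from 125711101 to 125711149. The matches lie 94, 67 and 67 bases before a start, in *Ano2* before the third of its starts in the table. A match of letters does not show that a protein binds there.
Gng13: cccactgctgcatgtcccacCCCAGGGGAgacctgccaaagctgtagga
Cnga2: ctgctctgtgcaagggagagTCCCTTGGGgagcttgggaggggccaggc
Ano2: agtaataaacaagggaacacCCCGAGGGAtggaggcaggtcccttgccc

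Levels below are deposited log2 signals minus the 75th percentile of the same array, so that 0 is the level of that percentile. On this scale the class I gene *Olfr544*, next to the J element, lay between -3.55 and -3.27 in the ΔJ mice, against -1.75 to -1.41 in the wild-type mice, so its levels followed the labelled genotype in all 12 mice (log2 difference -1.84, SE 0.077, adjusted p = 2.50e-07 from limma). The Y-linked gene *Kdm5d*, which females do not carry, shows how high its own probe set reads without the gene. It was -4.23 to -3.05 in the 7 females, and each of the 13 probe sets lay above this range in every mouse. The lowest value was -2.81, in *Cngb1* probe set 10580850. The background of other probe sets can differ, so this does not show that each of the 13 was detected. In both genotypes the values were spread more widely on the arrays of replicates 4 to 6 (SD of 2.20 to 2.23) than on those of replicates 1 to 3 (2.07 to 2.13), and these 2 sets of arrays were compared as well. The split was seen in the data and is not given in the labels. Of the marker lists of 9 other cell types, which hold 63 probe sets, 0 probe sets were called between the genotypes, against 0.135% of all probe sets.

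The mRNA levels of the transduction genes and of *Omp* did not differ detectably between ΔJ and wild-type mice. In the limma fit over all 35556 probe sets, 0 of the 13 probe sets passed an adjusted p of 0.05, against 0.135% of all probe sets, and 0 of the 13 had an unadjusted p under 0.05, against 3.33%. In 0 of the 13 did the ΔJ and wild-type mice not overlap, against 0.301% of all probe sets. The log2 differences ran from -0.24 to 0.099 with 8 below 0 and 5 above, and their median was -0.020, beside -0.027 over all probe sets. Adjusted p-values were 0.993 to 0.996. Of all probe sets, limma called 48, 46 lower and 2 higher in ΔJ mice, and all 40 of these with a single symbol were OR genes. For 9 of the 13 probe sets, the 95% interval of the difference lay within 1.3-fold in either direction, and the others were *Gnal*, *Gng13* and the *Cngb1* probe sets 10580850 and 10580852.

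**Figure D1:**
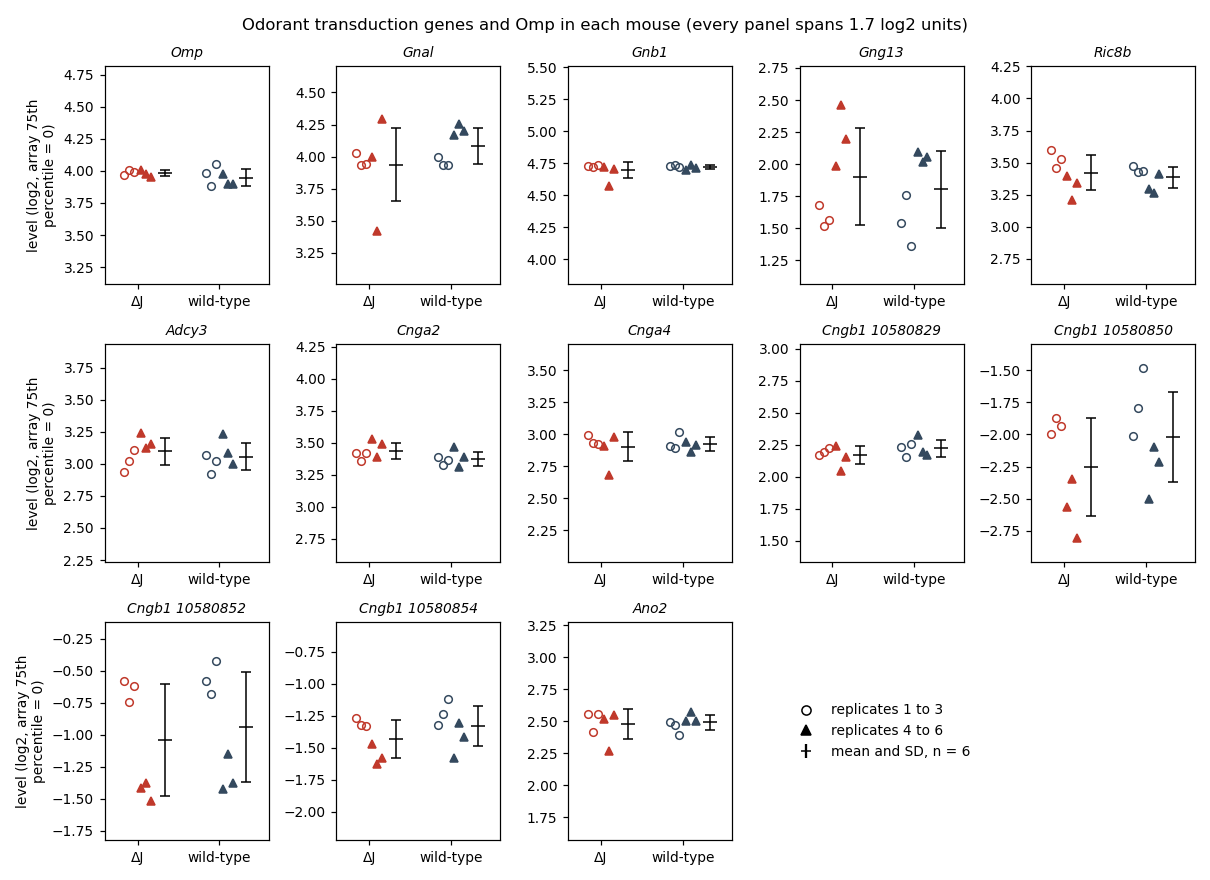
Level of each probe set (vertical axis, log2 relative to the 75th percentile of the array) in each ΔJ mouse (red) and each wild-type mouse (blue), with circles for replicates 1 to 3, triangles for replicates 4 to 6, and bars for the mean and SD of 6 mice. Both genotypes overlap in every panel, *Omp* stays between 3.88 and 4.05 in all 12 mice, and circles and triangles separate in *Gng13*, *Ric8b* and the *Cngb1* probe sets 10580850 and 10580852.

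*Omp* (probe set 10565705), on chromosome 7 from 98143359 to 98145447 (GRCm38.p6), encodes a small cytoplasmic protein found throughout mature OSNs. Its level was 3.97, 4.01, 3.99, 4.01, 3.98 and 3.95 in ΔJ mice 1 to 6, against 3.98, 3.88, 4.05, 3.98, 3.90 and 3.90 in wild-type mice 1 to 6. All ΔJ mice lay inside the range of the wild-type mice. The means were 3.98 ± 0.021 in ΔJ and 3.95 ± 0.067 in wild-type mice (SD, n = 6 each), a log2 difference of 0.036 (SE 0.051, 95% interval -0.075 to 0.147, adjusted p = 0.993 from limma). As a ratio this is 1.03 with bounds of 0.950 and 1.11. *Omp* was also among the steadiest genes of the array, with a within-genotype SD of 0.0498 that is lower than in all but 0.633% of the probe sets with a single symbol. This and the later percentiles of SD rank probe sets of every level together. Whether *Omp* is steadier than other genes of a like level was not tested. In RNA of a whole tissue, fewer cells of a type and less RNA per cell cannot be told apart.

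Among the genes of the G protein, *Gnal* and *Gng13* had a larger spread between mice than *Omp*. *Gnal* (probe set 10456363) encodes the olfactory alpha subunit, Golf. Its level was 4.02, 3.93, 3.95, 4.00, 3.42 and 4.29 in ΔJ mice 1 to 6, against 3.99, 3.93, 3.94, 4.17, 4.25 and 4.20 in wild-type mice 1 to 6. ΔJ replicate 5 was the lowest and ΔJ replicate 6 the highest of all 12 mice. The log2 difference of *Gnal* was -0.15 (SE 0.124, 95% interval -0.42 to 0.12, adjusted p = 0.993 from limma), and it was -0.042 without ΔJ replicate 5.

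*Gnb1* (probe set 10511069), on chromosome 4 from 155491300 to 155559269, encodes a beta subunit used in many cell types. It was 4.57 to 4.74 (median 4.72) in ΔJ mice and 4.70 to 4.73 (median 4.73) in wild-type mice. All ΔJ mice but replicate 5 lay between 4.71 and 4.74. Its log2 difference was -0.025 (SE 0.050, 95% interval -0.13 to 0.083). Its unshifted signal came as near as 0.499 log2 units to the brightest signal of an array, and whether its probes were saturated was not tested.

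*Gng13* (probe set 10442829), on chromosome 17 from 25717172 to 25719102, encodes the gamma subunit that joins Golf in OSN cilia. Its level was 1.68, 1.52, 1.56, 1.99, 2.46 and 2.20 in ΔJ mice 1 to 6, against 1.54, 1.76, 1.36, 2.09, 2.02 and 2.05 in wild-type mice 1 to 6. In both genotypes replicates 4 to 6 were above replicates 1 to 3, and the genotypes overlapped. The log2 difference between the genotypes was 0.099 (SE 0.182, 95% interval -0.30 to 0.49), with an SE of 0.087 once the set of arrays was a term of the model and -0.013 without ΔJ replicate 5.

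*Ric8b* (probe set 10365408), on chromosome 10 from 84917268 to 85018337, encodes a chaperone and exchange factor of Golf. It was 3.21 to 3.60 (median 3.43) in ΔJ mice and 3.27 to 3.47 (median 3.42) in wild-type mice. Its log2 difference was 0.038 (SE 0.074).

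*Adcy3* and *Ano2* act at the start and the end of the steps that follow the G protein. *Adcy3* (probe set 10394258), on chromosome 12 from 4133116 to 4213525, encodes the adenylyl cyclase of OSN cilia, and its level was 2.94 to 3.24 (median 3.11) in ΔJ mice and 2.92 to 3.24 (median 3.05) in wild-type mice. The log2 difference of *Adcy3* was 0.040 (SE 0.070, 95% interval -0.11 to 0.19). *Ano2* (probe set 10541968), on chromosome 6 from 125690419 to 126040133, encodes the calcium-activated chloride channel of the cilia, with a level of 2.27 to 2.56 (median 2.54) in ΔJ mice and 2.40 to 2.57 (median 2.50) in wild-type mice. The genotypes overlapped in both genes. The log2 difference of *Ano2* was -0.012 (SE 0.065, adjusted p = 0.996 from limma), and it was 0.030 without ΔJ replicate 5.

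The cyclic nucleotide-gated channel is built of the products of *Cnga2*, *Cnga4* and *Cngb1*, with *Cnga2* as the subunit that can form a channel alone. *Cnga2* (probe set 10600057), on chromosome X from 71991849 to 72010218, was 3.36 to 3.53 (median 3.42) in ΔJ mice and 3.31 to 3.47 (median 3.38) in wild-type mice. Its log2 difference was 0.060 (SE 0.054, 95% interval -0.057 to 0.18). *Cnga4* encodes a subunit that speeds the calcium-dependent closing of the channel. The level of *Cnga4* (probe set 10555925) was 3.00, 2.93, 2.92, 2.91, 2.68 and 2.98 in ΔJ mice 1 to 6, against 2.91, 2.89, 3.02, 2.94, 2.86 and 2.91 in wild-type mice 1 to 6. ΔJ replicate 5 lay below all other mice, and the other 5 ΔJ mice lay inside the wild-type range. The log2 difference of *Cnga4* was -0.020 (SE 0.063, 95% interval -0.16 to 0.12), and 0.023 without ΔJ replicate 5.

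*Cngb1*, on chromosome 8 from 95239043 to 95306585, encodes the modulatory beta subunit, and its 4 probe sets differed in their spread. Probe set 10580829 was 2.04 to 2.24 (median 2.18) in ΔJ mice and 2.15 to 2.33 (median 2.21) in wild-type mice. Its log2 difference was -0.051 (SE 0.056, 95% interval -0.17 to 0.070), and its within-genotype SD lay at the 3.40th percentile of the single-symbol probe sets. Probe set 10580850 was -2.81 to -1.87 (median -2.17) in ΔJ mice and -2.50 to -1.48 (median -2.05) in wild-type mice. The log2 difference of 10580850, -0.24 (SE 0.194, 95% interval -0.66 to 0.18), was the lowest of the 13. Probe sets 10580852 and 10580854 had log2 differences of -0.102 (SE 0.227) and -0.104 (SE 0.090). The within-genotype SDs of 10580850 and 10580852 lay at the 94.3rd and 97.1st percentiles, and in both of them every mouse of replicates 4 to 6 lay below every mouse of replicates 1 to 3. Which exons or transcripts each of the 4 reads is not given in the sources used here.

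**Figure D2:**
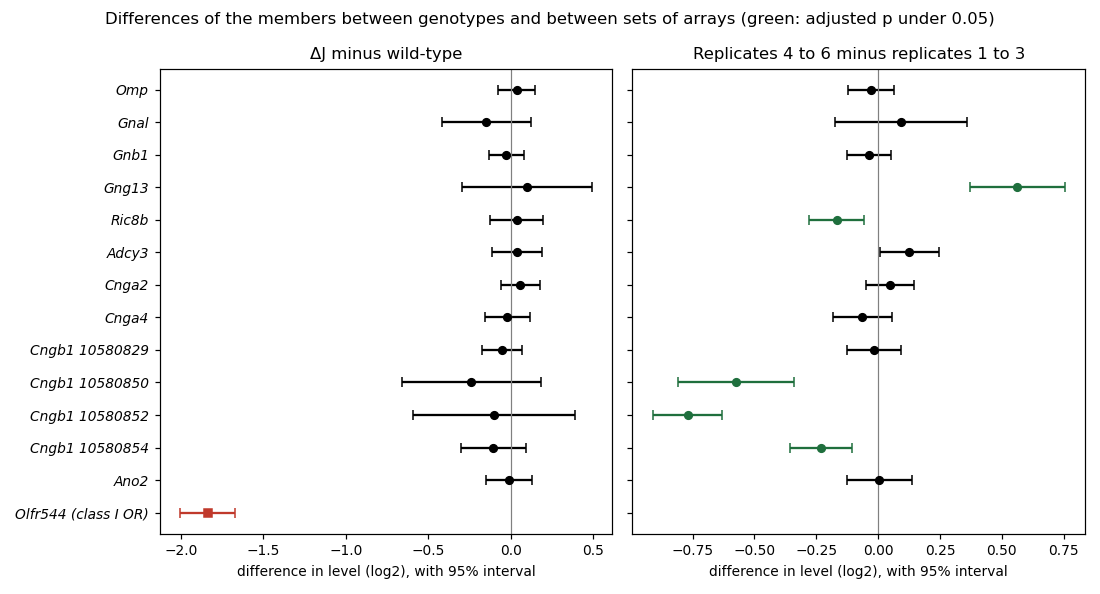
Log2 difference (horizontal axes, points, with 95% intervals from limma) of each probe set between ΔJ and wild-type mice on the left, with *Olfr544* below for scale, and between replicates 4 to 6 and replicates 1 to 3 on the right, with different axis ranges. On the left every interval of the 13 includes 0 while *Olfr544* lies at -1.84. On the right the 5 probe sets drawn in green passed an adjusted p of 0.05, against 42.2% of all probe sets.

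*Cnga4* is the member that lies beside the class I cluster. It runs on chromosome 7 from 105400024 to 105408775 and its left end lies 30707 bp past the end of *Olfr692*, the nearest OR gene measured, with *Fam160a2* overlapping that end. *Olfr692* (probe set 10555919) was -2.13 ± 0.18 in ΔJ mice and -1.65 ± 0.18 in wild-type mice (SD, n = 6 each), a log2 difference of -0.48 (SE 0.102, adjusted p = 0.242 from limma over all probe sets). Within 200 kb of *Cnga4* the array measured 5 OR genes, all with log2 differences below 0, running between -0.66 and -0.11. Of these, 1, *Olfr690*, was called (-0.66, adjusted p = 0.0425 from limma), against 0.135% of all probe sets. The 9 other genes in this window, *Cnga4* among them, had log2 differences from -0.16 to 0.11. Of these, 0 had an unadjusted p under 0.05, against 3.33% of all probe sets. In so few genes a count of 0 is near that share. *Fam160a2* had 0.015 and *Cckbr*, the gene on the other side, had 0.049. *Omp* lies on the same chromosome 4.34 Mb from *Olfr544*, on the side away from *Cnga4*, which lies 2.92 Mb from it.

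**Figure D3:**
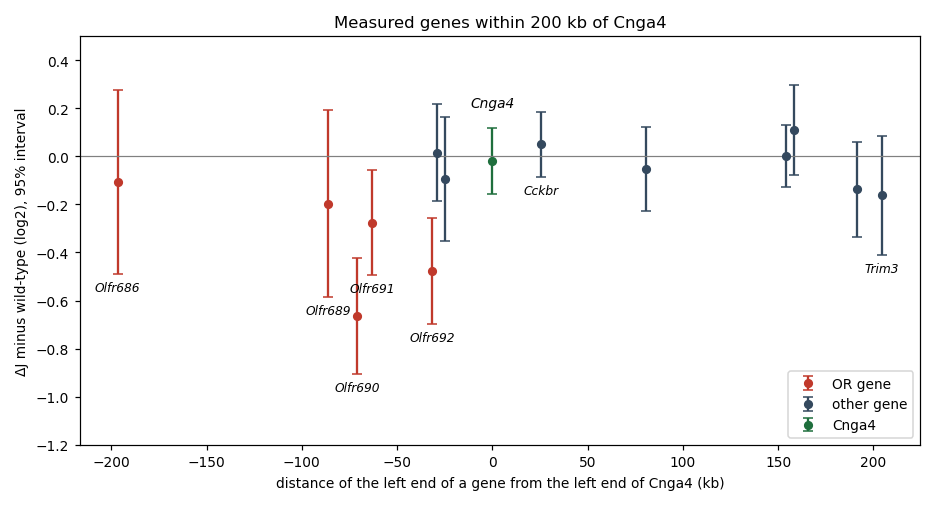
Log2 difference between ΔJ and wild-type mice (vertical axis, points, with 95% intervals from limma) of the 14 measured genes within 200 kb of *Cnga4*, by the distance of the left end of the gene in kb (horizontal axis), with OR genes in red and other genes in blue. *Olfr690* and *Olfr692* lie at -0.66 and -0.48, and *Cnga4* in green lies at -0.020 with an interval of -0.16 to 0.12.

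Some members differed between the sets of arrays, about as often as probe sets of the whole array. The sets were split by the spread of values on these same arrays, so the tests below describe that split only. Between replicates 4 to 6 and replicates 1 to 3, 5 of the 13 probe sets were called with genotype in the model, against 42.2% of all probe sets. *Gng13* was higher in replicates 4 to 6, with levels of 1.99 to 2.46 in these and 1.36 to 1.76 in replicates 1 to 3 (log2 difference 0.56, SE 0.087, adjusted p = 3.92e-04 from limma). *Cngb1* probe set 10580852 was lower, with -1.52 to -1.15 in replicates 4 to 6 and -0.74 to -0.43 in replicates 1 to 3 (log2 difference -0.77, SE 0.064, adjusted p = 6.47e-06 from limma). The 2 sets did not overlap in 4 of the 13 probe sets, these 2, *Cngb1* 10580850 and *Ric8b*, against 23.3% of all probe sets. The other calls were *Cngb1* probe sets 10580850 (-0.57) and 10580854 (-0.23) and *Ric8b* (-0.17, adjusted p = 0.0204 from limma), all lower. The median of all probe sets was -0.095 in this comparison and 0.046 without the percentile shift, so values of this size depend on the scaling. With the percentile shift 1 call was higher and 4 were lower, without a shift 4 were higher and 2 lower, and with a median shift 2 were higher and 3 lower. *Gng13* and the *Cngb1* probe sets 10580850 and 10580852 were called under all 4 scalings, *Cngb1* 10580854 under 3, *Ric8b* and *Adcy3* under 2, and *Omp* and *Cnga2* under 1. *Omp*, *Adcy3*, *Cnga2* and *Gng13* were the 4 higher without a shift. What distinguishes the sets of arrays is not given in the labels.

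Neither sex nor age separated the members by the adjusted test. Between males and females, with genotype and set in the model, 0 of the 13 were called, against 0.0141% of all probe sets, and the log2 differences ran from -0.091 for *Gng13* to 0.19 for *Gnal*. Between P33 and P30, 0 were called, against 0.00562%. *Gnal* had the 1 unadjusted p under 0.05 for age, against 14.6% of all probe sets, with levels of 4.29, 4.25 and 4.20 in the 3 P33 mice against 3.42 to 4.17 in the P30 mice (log2 difference 0.36, SE 0.150, adjusted p = 0.315 from limma). All P33 mice belong to replicates 4 to 6, in which P30 mice were at 4.00, 3.42 and 4.17. For the difference of the genotype effect between males and females, 0 of the 13 were called, against 0% of all probe sets, and the 2 with an unadjusted p under 0.05, against 10.2% of all probe sets, were *Cngb1* probe sets 10580852 (-0.30, adjusted p = 0.418 from limma) and 10580850 (-0.49, adjusted p = 0.447 from limma).

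The median within-genotype SD of the 13 probe sets was 0.105, beside 0.160 for all probe sets with a single symbol. The probe sets compared were not matched for level. *Gnb1* (0.317th percentile), *Omp* (0.633rd) and *Cnga2* (1.75th) were among the least variable, and *Gnal* (75.3rd), *Gng13* (92.7th) and the *Cngb1* probe sets 10580850 and 10580852 were the most variable. These SDs include the difference between the sets of arrays. Within genotype and set, *Gnal* lay at the 92.4th percentile and *Gng13* at the 76.3rd. *Cngb1* 10580850 and 10580852 then lay at the 89.6th and 44.8th. By level, ΔJ replicate 5 was the lowest ΔJ mouse in 7 of the 13 probe sets and the highest in *Gng13*. Its deviations from the mean of the same genotype and set of arrays, over all single-symbol probe sets, were the largest of the 12 arrays, with a root mean square of 0.205 against 0.087 to 0.190 in the others, of which ΔJ replicate 6 had the highest. ΔJ replicates 5 and 6 share the mean they are compared with, so their deviations depend on each other. The mean level of 12 other mature OSN genes was 2.83 in this mouse, 3.14 to 3.24 in the other ΔJ mice and between 3.11 and 3.25 in wild-type mice, while that of 8 sustentacular cell genes was 3.03, inside the 2.98 to 3.05 of the other ΔJ mice. *Omp*, the marker of mature OSNs, was 3.98 in this mouse, inside the 3.95 to 4.01 of the other ΔJ mice. *Adcy3* (3.12) and *Cnga2* (3.39) also lay inside the range of the other ΔJ mice. This mouse also had the lowest mean of the ΔJ mice in 4 of the 9 cell type lists, with 1.47 for immature OSNs (1.61 or above in the other ΔJ mice), -0.482 for basal and progenitor cells (-0.418 to -0.336), -0.530 for microvillar and tuft cells (-0.519 to -0.332) and -2.01 for olfactory bulb neurons (-1.81 to -1.62). The part of these differences in the values of the members was not tested.

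**Figure D4:**
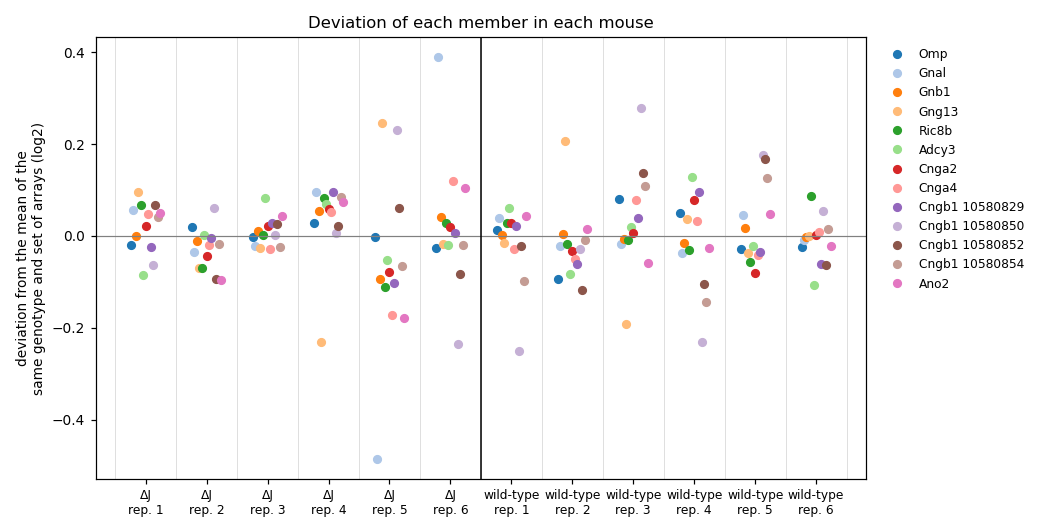
Deviation of each probe set (colours) in each mouse from the mean of the 3 mice of the same genotype and set of arrays (vertical axis, log2), with ΔJ mice on the left and wild-type mice on the right. *Gnal* lies at -0.48 in ΔJ replicate 5 and at 0.39 in ΔJ replicate 6, the largest deviations in the plot, while wild-type deviations of *Gnal* stay within 0.05. Each mean includes the mouse itself, so the low value of ΔJ replicate 5 raises the deviation of ΔJ replicate 6. The level of *Gnal* in ΔJ replicate 6 was 4.29, beside 4.25 in the highest wild-type mouse.

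Pairs of members moved together to very different degrees over the 12 arrays. These are Pearson's r of the same deviations, n = 12, and the points share the array and its scaling. The deviations were taken from the means of genotype and set, so fewer than 12 of them are independent. *Adcy3* and *Cngb1* probe set 10580829 had r = 0.859, and 0.922 without ΔJ replicate 5. *Cnga2* and the same probe set had 0.808, and 0.704 without this mouse. *Gnal* and *Gnb1* had 0.895 with all mice and -0.038 without ΔJ replicate 5, so that this value rested on 1 mouse. *Omp* and *Gng13* ran in opposite directions, with -0.616, and -0.804 without it.

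Among 21776 other single-symbol probe sets, those most like *Omp* by this measure were *Pla2g15* (r = 0.967), a lysosomal phospholipase, *Akap11* (0.962 and 0.958 in its 2 probe sets), an anchor of protein kinase A, *Clip4* (0.961) and *Adgrl2* (0.953). These values stayed at 0.954 or above without ΔJ replicate 5. Those most like the mean of the 10 genes were *Acp2* (0.985), *Npc1* (0.981), *Olfr1226* (0.977), *Pcgf6* (0.972) and *Retreg1* (0.972), and their values were 0.828 to 0.913 without ΔJ replicate 5. They are the highest of 21776 values over 12 arrays.

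Other genes of the pathway were not called either. Over 4 lists with 59 probe sets of 55 genes, 0 were called between ΔJ and wild-type mice, against 0.135% of all probe sets. The unadjusted p was under 0.05 in 1 (1.69%), against the 3.33% of all probe sets, and the median log2 difference was -0.011. Of 12 measured genes that end or adapt the response, 0 passed, with log2 differences of 0.050 (SE 0.073) for *Pde1c*, the calcium-dependent phosphodiesterase of the cilia, and -0.14 (SE 0.123) for *Pde4a*. Of 12 genes of ion transport and excitability, 0 passed, with -0.14 (SE 0.092) for *Slc24a4*, the exchanger that removes calcium, and -0.037 (SE 0.069) for *Slc12a2*, which loads the cell with chloride. Of 19 measured paralogs of the cascade proteins 0 were called, with -0.096 for *Gnao1* and -0.042 for *Gnai2*. Among these, *Adcy4*, another adenylyl cyclase, had the 1 unadjusted p under 0.05, at -1.11 ± 0.087 in ΔJ mice and -0.92 ± 0.079 in wild-type mice (SD, n = 6 each; log2 difference -0.19, SE 0.061, adjusted p = 0.993 from limma).

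Of 12 other measured genes of mature OSNs, 0 passed an adjusted p of 0.05, against 0.135% of all probe sets. Their log2 differences ran from -0.245 to 0.036, with a median of -0.027 and 9 of the 12 below 0. They were 0.00097 (SE 0.064) for *Rtp1* and -0.011 (SE 0.100) for *Rtp2*, which carry ORs to the cell surface. Of 9 measured genes of immature OSNs 0 were called, with a median log2 difference of -0.049 and 5 of the 9 below 0. *Gap43*, of growing axons, had 0.18 (SE 0.096), *Gng8*, a gamma subunit of immature OSNs, had -0.14 (SE 0.141), and *Tubb3*, a neuronal tubulin, had the 1 unadjusted p under 0.05 (0.26, adjusted p = 0.993 from limma). Among the remaining cell types, the median log2 difference was -0.018 over 9 probe sets of basal and progenitor cells (*Krt5*, -0.018; *Krt14*, -0.012) and 0.015 over 8 of sustentacular cells (*Cyp2g1*, -0.0091; *Cyp1a2*, -0.072). It was 0.0051 over 8 of glands and respiratory epithelium (*Bpifb9a*, 0.025; *Bpifa1*, 0.019) and -0.048 over 7 of microvillar and tuft cells (*Ascl3*, -0.048; *Cftr*, -0.019). It was 0.038 over 5 of ensheathing glia (*Sox10*, -0.064; *Fabp7*, -0.041) and 0.087 over 7 of immune cells (*Ptprc*, 0.087; *Cd68*, 0.019). It was -0.0066 over 4 of blood and endothelium (*Alas2*, 0.30; *Pecam1*, -0.078) and 0.084 over 6 of olfactory bulb neurons (*Gad1*, 0.14; *Gad2*, 0.037). In these 8 lists 0 probe sets had an unadjusted p under 0.05, against 3.33% of all probe sets. Counts of 0 in lists this short do not show that the cell types were unchanged.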

How the data were processed

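For each of 12 mice the authors deposited 1 log2 signal per probe set (transcript cluster), 35556 in all, of the Affymetrix Mouse Gene 1.0 ST array. Affymetrix Expression Console is named in the processing notes of the submitters. How it corrected the background and summarized the probes is not given in the sources used here. In the methods the authors name a 75% percentile shift, and this was applied here by subtracting the 75th percentile of each array. Names came from the annotation of the platform, with 21789 of a single symbol, 1621 of several and 12146 of none. Where a gene has several probe sets, each is given.

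Differences were fitted in R 4.3.3 with limma 3.58.1 (lmFit, eBayes) over all probe sets, two-sided, with genotype as the only term and Benjamini-Hochberg adjustment over all probe sets. Set, sex, age and the interaction of genotype and sex were fitted as further terms. Groups, sex and age came from the labels. The members, the 4 pathway lists and the 9 cell type lists were chosen with earlier results of these data known. The named genes are the 10 members, the first 2 measured genes of each list, each list gene with an unadjusted p under 0.05 for genotype, the 5 probe sets most like *Omp* and the 5 most like the mean of the members, and *Olfr544* and *Kdm5d* as checks. The genes within 200 kb of *Cnga4* were added after their values were seen. Motifs were searched in RefSeq promoters. The steps were tested on simulated data. No 2 arrays were identical (0 pairs), and their number limits the precision.

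The labels give each genotype replicates 1 to 6. The deviations of same-numbered mice from their genotype means correlated with r of 0.365, 0.294, 0.419, 0.441, 0.185 and 0.385, above 0.1 for every number. Within the sets of arrays these correlations were -0.14 to 0.078, so they do not show that same-numbered mice were matched. The main fit used no pairing, and the replicate number was a block only in an alternative fit. The wild-type mice are littermates, and which mice share a litter is not given in the sources used here. Alternatives were a replicate block, the set as a block or within each set, sex and set as covariates, P30 mice only, 3 other scalings, a filter, another variance model and each mouse left out.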

Additional observations from a re-analysis of the deposited data

Results flagged for a closer look

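In 2 of the 26 groups of 6 mice examined (13 probe sets in 2 genotypes), 1 mouse lay far from the other 5, and chance alone flags about 1 group in 20. Both were ΔJ replicate 5. *Gnb1* was 4.57 in this mouse and 4.71 or above in the other 5 ΔJ mice, a gap of 0.808 of the range, beyond Dixon's critical value for 6 samples. *Cnga4* was 2.68 in this mouse and 2.91 or above in the others, a gap of 0.722 of the range. Without this mouse the log2 difference between ΔJ and wild-type mice was 0.00022 for *Gnb1* and 0.023 for *Cnga4*.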

How the results depend on the processing

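The count of 0 members called between ΔJ and wild-type mice held under all 11 other settings and with each of the 12 mice left out, with the lowest adjusted p of any member at 0.422 from limma. With the replicate block, 0 members and 51 of all probe sets were called, and with the set of arrays as a block 0 members and 71 of all probe sets, against 48 without a block, and the block changed no call of a member. Over all alternatives, 283 of 299 log2 differences kept their sign and 16 changed it. Within replicates 1 to 3 alone the log2 difference was 0.014 for *Gnal*, 0.0084 for *Cnga4* and 0.055 for *Ano2*, and within replicates 4 to 6 alone it was -0.0079 for *Ric8b*. With a median shift it was 0.017 for *Gnb1*, 0.022 for *Cnga4* and 0.030 for *Ano2*, with quantile normalization 0.014 for *Gnb1*, and without a shift 0.00032 for *Ano2*. With 1 mouse left out at a time, it ran from -0.033 to 0.00022 for *Gnb1*, from -0.013 to 0.175 for *Gng13*, from -0.039 to 0.023 for *Cnga4*, from -0.198 to 0.00063 for *Cngb1* probe set 10580852 and from -0.031 to 0.030 for *Ano2*. The cause was not tested. Of all probe sets, 15 were called within replicates 1 to 3, 19 within replicates 4 to 6 and 28 with the P30 mice only, which hold fewer mice. Between the sets of arrays 5 members and 14998 of all probe sets were called with the percentile shift. Without a shift these were 6 members and 14660 of all probe sets. Without counts or scanner signals, the background of single probe sets is unknown here, and near the level of *Kdm5d* in females a change could be missed.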
